A study of Mus musculus with 4 samples.

Results

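A set of keratin-positive tumor cells almost free of Epcam messenger RNA, proposed as Sprr1a and Adh7 positive, was described in single cells of 2 mouse pancreatic tumors. A cell belonged to the set when it had 500 or more detected genes and at most 10% mitochondrial UMIs (unique molecular identifiers, each counting 1 captured RNA molecule). It also had Krt8 and Krt18 together at 20 or more UMIs per 10000, Epcam under 3 per 10000, no Ptprc UMI, at most 1 of 4 mesothelial genes and under 5 of 8 cell cycle genes detected. Npy, Cpe and Ptprn together had to stay under 5 per 10000, and at least 4 of the 6 genes Ttr, Sprr1a, Cyp2s1, Adh7, Gkn2 and S100g had to be detected. The rule gave 272 cells of 8282 barcodes, of which 7984 passed the first 2 conditions. Sorted CAF library 1 held 116 of them, all live library 1 held 150, sorted CAF library 2 held 6 and all live library 2 held 0.

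Both tumors came from KPC mice, a genetic model whose alleles include Trp53LSL-R172H/+ and Pdx1-Cre, on the C57BL/6J background. The genotype was shared by every library, so no group was free of it. Pdx1-Cre acts in the pancreatic lineage and also in other tissue that expresses Pdx1, such as parts of the stomach and duodenum, which is a limit of the model. From each digested tumor, a sorted fraction named for cancer-associated fibroblasts (CAF) was collected by the absence of DAPI, CD45, CD31 and EpCAM and the presence of PDPN, beside an all live fraction of every cell that excluded DAPI. EpCAM is named in that gate, but no EpCAM antibody is listed among the stains. Ages of the mice are not given in the labels. Each of the 4 libraries was taken as 1 sample, whereas the design text counts 8 samples with technical replicates. Libraries of the same number were taken as coming from 1 tumor, so 266 of the 272 cells are cells of a single tumor, and agreement between its 2 libraries is agreement between 2 captures of that tumor.

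Pancreatic ductal tumors often take on a gastric programme, in which genes of the surface mucous cells of the stomach are expressed. Gkn1 and Gkn2 encode gastrokines, proteins secreted by those cells, and Adh7 encodes an alcohol dehydrogenase of the stomach and upper digestive tract that oxidises ethanol and retinol. Sprr1a encodes a precursor of the cornified envelope of squamous cells that is also induced by stress, Cyp2s1 an extrahepatic cytochrome P450, Ttr the thyroxine and retinol-binding protein carrier transthyretin, and S100g the calcium-binding protein calbindin-D9k.

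The promoters of 6 genes are printed because the results turn on them: the gastrokine pair, which varied together from cell to cell, Bnip3 and Ero1l, which stood among the leading genes, and the pair that gave the cells their proposed name. They are RefSeq windows of 300 bases on GRCm38.p6, from 250 bases before to 50 bases after the start of the gene, 5′ to 3′ on the strand of the gene. In Gkn2 and Gkn1 the capitals mark AGATAA, a motif of the GATA factors. In Bnip3 and Ero1l they mark ACGTG, the core of the hypoxia response element, and in Sprr1a and Adh7 the AP-1 motif TGANTCA. Each motif was searched on both strands.

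Gkn2, chr6:87373115-87373414, strand +: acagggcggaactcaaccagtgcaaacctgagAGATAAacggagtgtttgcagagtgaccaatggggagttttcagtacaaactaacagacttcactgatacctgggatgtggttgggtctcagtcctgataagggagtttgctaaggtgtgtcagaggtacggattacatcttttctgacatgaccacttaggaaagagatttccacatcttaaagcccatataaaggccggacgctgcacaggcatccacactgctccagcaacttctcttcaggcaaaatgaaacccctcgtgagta

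Gkn1, chr6:87350866-87351165, strand -: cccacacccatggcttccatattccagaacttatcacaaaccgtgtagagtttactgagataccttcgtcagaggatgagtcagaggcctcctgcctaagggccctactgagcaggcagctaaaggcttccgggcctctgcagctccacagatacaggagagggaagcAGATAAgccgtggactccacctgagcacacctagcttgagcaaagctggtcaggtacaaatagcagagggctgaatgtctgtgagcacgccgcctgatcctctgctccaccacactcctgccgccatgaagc

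Bnip3, chr7:138909457-138909756, strand -: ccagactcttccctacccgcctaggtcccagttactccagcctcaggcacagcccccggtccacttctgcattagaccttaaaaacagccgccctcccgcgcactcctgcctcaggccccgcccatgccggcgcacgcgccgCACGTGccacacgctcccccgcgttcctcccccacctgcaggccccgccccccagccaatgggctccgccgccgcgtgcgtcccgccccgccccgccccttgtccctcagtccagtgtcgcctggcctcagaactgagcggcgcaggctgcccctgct

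Ero1l, chr14:45318523-45318822, strand -: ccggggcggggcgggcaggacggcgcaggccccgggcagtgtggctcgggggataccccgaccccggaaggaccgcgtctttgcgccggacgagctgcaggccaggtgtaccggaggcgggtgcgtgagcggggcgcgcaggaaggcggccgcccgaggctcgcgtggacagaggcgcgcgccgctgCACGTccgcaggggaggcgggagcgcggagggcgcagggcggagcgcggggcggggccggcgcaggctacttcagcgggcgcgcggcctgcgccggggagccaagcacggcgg

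Sprr1a, chr3:92485832-92486131, strand -: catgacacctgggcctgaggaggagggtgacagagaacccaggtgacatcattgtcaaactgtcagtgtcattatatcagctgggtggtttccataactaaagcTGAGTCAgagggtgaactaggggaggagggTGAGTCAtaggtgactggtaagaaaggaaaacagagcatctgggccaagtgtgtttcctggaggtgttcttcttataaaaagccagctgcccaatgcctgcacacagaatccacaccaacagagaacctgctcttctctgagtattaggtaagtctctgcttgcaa

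Adh7, chr3:138217523-138217822, strand +: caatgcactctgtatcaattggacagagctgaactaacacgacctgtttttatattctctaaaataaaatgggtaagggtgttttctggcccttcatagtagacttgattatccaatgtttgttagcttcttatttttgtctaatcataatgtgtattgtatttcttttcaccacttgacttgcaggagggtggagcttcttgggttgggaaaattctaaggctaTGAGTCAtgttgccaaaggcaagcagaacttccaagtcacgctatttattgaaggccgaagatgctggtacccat

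AGATAA began 218 bases before the start of Gkn2 and 82 before that of Gkn1. The 2 matches in Bnip3, 108 and 107 bases before its start, overlap on opposite strands, and the match in Ero1l (Ero1a in RefSeq) began 63 bases before the start. Sprr1a held matches 146 and 116 bases before its start, and Adh7 held 1 at 25 bases. The RefSeq span of Adh7 begins at base 138198064 of chromosome 3, before this window, so the window lies around a start inside that span. Of all 32851 mouse promoter windows of this length, 11.2% held AGATAA, 19.6% ACGTG and 7.81% TGANTCA, so a match is a description of the letters and not of a bound site. Gkn1 and Gkn2 are neighbours, with 22450 bases between the end of Gkn1 and the start of Gkn2.

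The proposed name was checked against the levels of the genes, given as counts per 1000000 (CPM) of the UMIs summed over the cells of a class in a library. The cells were set beside 3 other classes of Epcam-low keratin-positive cells of tumor 1. Other Epcam-low cells met every condition except that 3 or fewer of the 6 genes were detected, Npy or Cpe positive cells reached 5 per 10000 in the summed Npy, Cpe and Ptprn, and cycling cells had 5 or more of the 8 cell cycle genes. Adh7 stood at 176 CPM in sorted CAF library 1 and 148 CPM in all live library 1 in the chosen cells, against 49.96 and 27.03 CPM in other Epcam-low cells. Npy or Cpe positive cells had 50.6 and 31.0 CPM of Adh7, and cycling cells 73.3 and 63.0 CPM. Gkn2 stood at 1064 and 1142 CPM in the chosen cells, against 414 and 366 CPM in other Epcam-low cells, 282 and 165 CPM in Npy or Cpe positive cells and 391.9 and 376 CPM in cycling cells. Both genes were therefore highest in the chosen cells in each library of tumor 1, and the rule used both.

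Sprr1a went against the name. It stood at 776 and 950.1 CPM in the chosen cells and at 732 and 631 CPM in other Epcam-low cells. In Npy or Cpe positive cells it was far higher, at 1589 and 1563 CPM. Its ratio of the chosen to the other Epcam-low cells was 1.06 in sorted CAF library 1 (95% counting interval 1.003 to 1.12) and 1.51 in all live library 1 (1.43 to 1.58). Adh7 had ratios of 3.52 (2.97 to 4.18) and 5.49 (4.45 to 6.83) in the same libraries. Because Sprr1a RNA was no mark of these cells, they are called Adh7-Gkn2 cells here, after 2 of the genes that chose them. No new cell type is meant by that name.

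**Figure D1:**
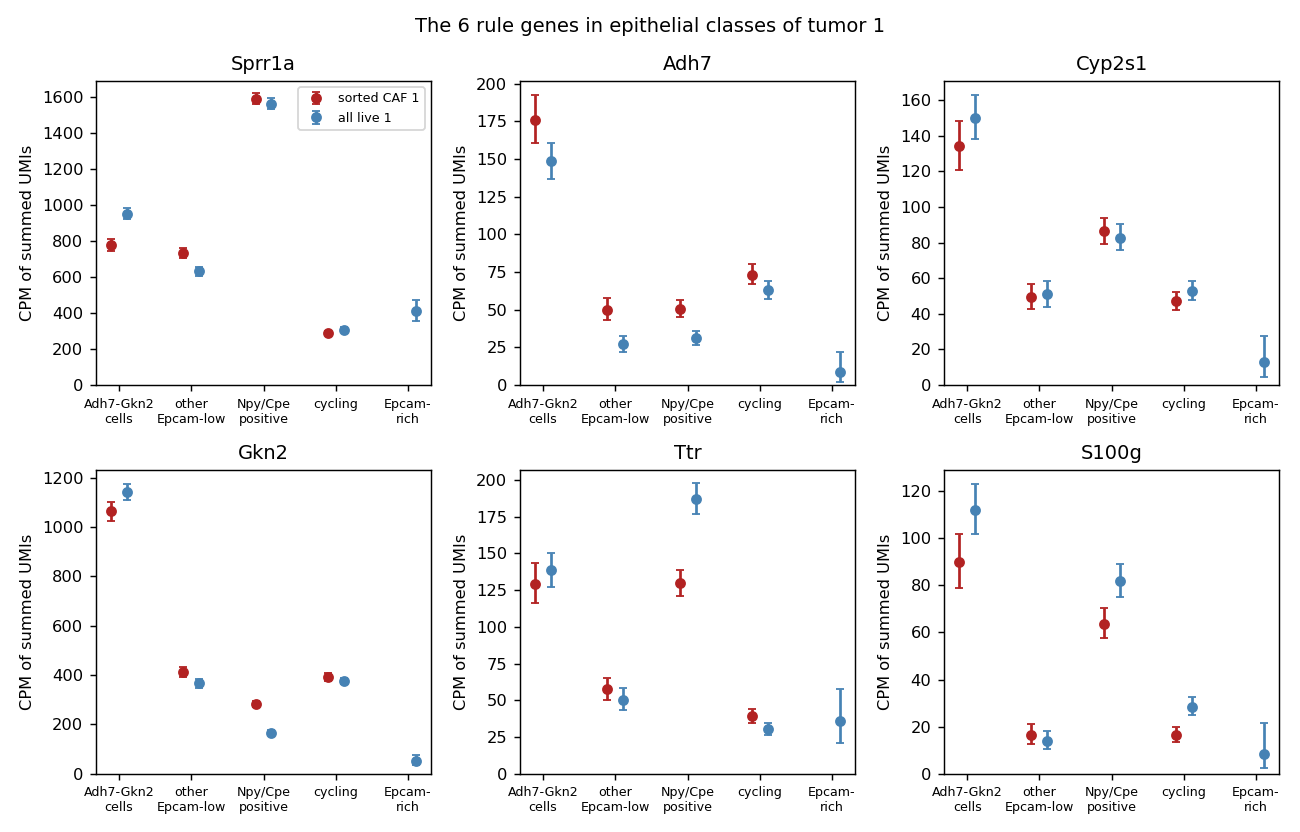
Levels of the 6 genes of the rule, in CPM of summed UMIs, in 5 keratin-positive classes of tumor 1, with the sorted CAF and all live libraries side by side and bars for the 95% Poisson counting interval (Epcam-rich cells of the sorted library, a single cell, are not drawn). Adh7, Gkn2, Cyp2s1 and S100g are highest in Adh7-Gkn2 cells, while Sprr1a is highest in Npy or Cpe positive cells, at 1589 and 1563 CPM.

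Cyp2s1 stood at 134 and 150.2 CPM in Adh7-Gkn2 cells, 49.2 and 50.9 CPM in other Epcam-low cells, 86.5 and 82.8 CPM in Npy or Cpe positive cells and 46.95 and 52.7 CPM in cycling cells. S100g was at 89.9 and 112 CPM, against 16.6 and 14.03 CPM in other Epcam-low cells and 63.8 and 81.9 CPM in Npy or Cpe positive cells. Ttr was shared with the Npy or Cpe positive cells, at 129 and 138 CPM in Adh7-Gkn2 cells and 130 and 187 CPM in Npy or Cpe positive cells, and stood at 57.4 and 50.4 CPM in other Epcam-low cells. These levels describe how the rule worked and carry no test.

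Within the Adh7-Gkn2 cells the 6 genes were spread unevenly. Sprr1a was detected in 97.1% of the 272 cells, Gkn2 in 90.4%, Cyp2s1 in 84.6%, Adh7 in 74.3%, Ttr in 65.1% and S100g in 47.4%. The commonest combination was Sprr1a, Cyp2s1, Adh7 and Gkn2 with neither Ttr nor S100g, in 42 cells, followed by the same genes with Ttr in 41 cells and by Ttr, Sprr1a, Cyp2s1 and Gkn2 in 36. All 6 genes were detected in 30 cells, 5 in 100 and 4 in 142. Another 166 cells stood just outside the rule with 3 genes. Gkn2 ranged widely between single cells, with a lowest value of 0, a median of 3.64 and a highest of 103 UMIs per 10000 in sorted CAF library 1, and 0, 3.40 and 187 in all live library 1. Adh7 had a narrow range, with medians of 0.84 and 0.80 per 10000 and highest values of 10.01 and 10.1. Cells just inside and just outside the limit differed by degree: Gkn2 stood at 1083 and 920.5 CPM in cells with 4 genes and at 653 and 658 CPM in cells with 3, and Ero1l at 768 and 615 CPM in cells with 4 genes and at 540.2 and 408 CPM in cells with 3.

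Depth moved with the rule. The median was 24148 UMIs per Adh7-Gkn2 cell in sorted CAF library 1 and 26646 in all live library 1, against 15296 and 13998 in other Epcam-low cells. When each cell was thinned at random to 5000 UMIs, 34 of 115 Adh7-Gkn2 cells (29.6%) and 54 of 150 (36.0%) still had 4 or more of the genes. At that equal depth Adh7 was detected in 43.5% and 38.0% of Adh7-Gkn2 cells and in 12.8% and 11.6% of other Epcam-low cells, against unthinned shares of 75.9% and 74.0% in Adh7-Gkn2 cells and 23.8% and 21.1% in other Epcam-low cells. Gkn2 was detected in 64.3% and 66.7% of thinned Adh7-Gkn2 cells and 31.7% and 28.2% of thinned other Epcam-low cells (89.7% and 92.0%, against 47.2% and 41.3%, unthinned). The cells were still classed at full depth on the same UMIs, and the rule used both genes. Higher thinned shares in Adh7-Gkn2 cells therefore follow from the choice of cells and are no check on depth. In leukocytes of all live library 1, which should lack these genes and had a median of 6792 UMIs, the thinned shares were 0.235% for Adh7, 6.35% for Gkn2 and 12.7% for Sprr1a. Thinning left out 1 Adh7-Gkn2 cell and 17 other Epcam-low cells of sorted CAF library 1, and 0 and 2 of all live library 1. Within 15000 to 35000 UMIs, 40 of the 51 genes named as higher in the comparison with other Epcam-low cells passed again. The 51 include genes of the rule.

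**Figure D2:**
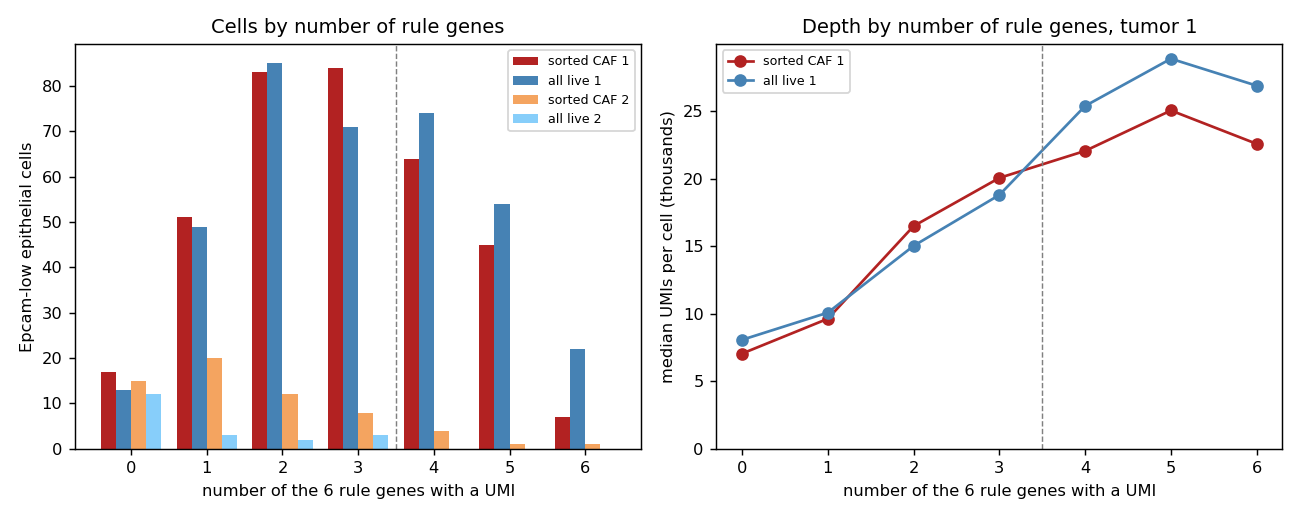
Left, Epcam-low epithelial cells of each library (vertical axis, cells) by how many of the 6 genes had a UMI (horizontal axis); right, the median UMIs per cell, divided by 1000, for the libraries of tumor 1, with the limit of the rule as a dashed line. Cells with 4 or more genes, to the right of the line, are common in both libraries of tumor 1 and number 6 in sorted CAF library 2 and 0 in all live library 2, and depth is higher in cells with more of the genes, up to 5.

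Where the cells occurred was not part of the rule. Among Epcam-low epithelial cells that met every other condition, Adh7-Gkn2 cells made up 33.1% of 351 in sorted CAF library 1 (95% Clopper-Pearson interval 28.2 to 38.2) and 40.8% of 368 in all live library 1 (35.7 to 45.97). Tumor 2 held far fewer, with 9.84% of 61 in sorted CAF library 2 (3.70 to 20.2) and 0 of 20 in all live library 2, which allows a share of up to 15.0% by the limit of 3 counts and 16.8% by the Clopper-Pearson interval. These 20 cells had a median of 4205.5 UMIs, against 15296 and 13998 in other Epcam-low cells of sorted CAF and all live library 1. The part of depth in the shares of tumor 2 was not tested. As shares of all filtered cells, Adh7-Gkn2 cells were 8.27%, 7.76% and 0.491% for sorted CAF library 1, all live library 1 and sorted CAF library 2. They were 0 for all live library 2, which allows up to 0.0875% by 3 counts and 0.108% by the Clopper-Pearson interval. In tumor 1 the odds of an Adh7-Gkn2 cell among Epcam-low cells had a ratio of 0.718 for the sorted CAF over the all live fraction (exact conditional interval 0.523 to 0.984). That interval reached past 1 with Epcam at 0 (odds ratio 0.761), with 3 or more genes (0.881), with 5 or more genes (0.669), after thinning (0.680) and within 15000 to 35000 UMIs (0.725). All these intervals cover counting error only. The smallest two-sided p that exact permutation of 2 libraries against 2 could reach is 0.333, or 0.5 within tumors, and no test over libraries was run.

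The keratins, the sort genes and the markers of other cells were measured in the Adh7-Gkn2 cells as a check. Krt8 stood at 6777 and 6119 CPM in Adh7-Gkn2 cells of sorted CAF library 1 and all live library 1, and Krt19 at 2838 and 2717 CPM. Epcam, used by the rule, was at 5.85 and 9.58 CPM, against 2275 CPM in the 40 Epcam-rich epithelial cells of all live library 1. Vim, a mesenchymal filament gene, was abundant, at 2462 and 2569 CPM in Adh7-Gkn2 cells and 2231 and 2379 CPM in other Epcam-low cells. Pdpn, whose protein defined the sorted fraction, had 1 UMI in the 116 Adh7-Gkn2 cells of sorted CAF library 1 and 7 in the 150 of all live library 1. PDPN protein was not measured in these files. Pecam1, which encodes the CD31 by whose absence the fraction was sorted, had a UMI in 86 of 116 and 130 of 150 Adh7-Gkn2 cells, at 72.3 and 99.8 CPM. It stood at 61.7 and 81.1 CPM in other Epcam-low cells and at 791 CPM in 21 endothelial cells of all live library 1, while the endothelial genes Kdr, Plvap and Emcn were at 0 UMIs in Adh7-Gkn2 cells of sorted CAF library 1 and at 1 UMI each in those of all live library 1. Of 8 fibroblast markers 7 were above 0 in each library, with summed levels of 34.7 and 135 CPM in Adh7-Gkn2 cells and 85.1 and 101 CPM in other Epcam-low cells, and Fap was at 0. Of 7 mesothelial markers 6 were above 0 in each library, with summed levels of 3024 and 2869 CPM in Adh7-Gkn2 cells and 2696 and 2436 CPM in other Epcam-low cells. Krt19, an epithelial keratin as well, and Msln, at 183 and 148 CPM in Adh7-Gkn2 cells and 190 and 188 CPM in other Epcam-low cells, made up nearly all of it. The other 5, of which the rule used 4, summed to 3.29 and 4.28 CPM in Adh7-Gkn2 cells and 3.57 and 3.12 CPM in other Epcam-low cells, with Upk3b at 0 in Adh7-Gkn2 cells of sorted CAF library 1 and Gpm6a in those of all live library 1. Summed macrophage or monocyte markers were at 111 and 242 CPM in Adh7-Gkn2 cells and 84.4 and 319 CPM in other Epcam-low cells, and their part in the differences between these classes was not tested. In Adh7-Gkn2 cells of sorted CAF library 1, Cd14 (62.9 CPM) and Csf1r (36.2 CPM) made up most of the sum. Lyz2 was at 0.731, Tyrobp at 0.365 and C1qa at 0 CPM there, against 68.5, 18.4 and 9.58 CPM in all live library 1. Summed acinar markers were at 65.8 and 75.3 CPM in Adh7-Gkn2 cells, with 7 of 10, Prss1 and Cpa1 among them, at 0. Cela1 alone made up nearly all of these sums, at 65.0 and 72.1 CPM, against 69.3 and 67.8 CPM in other Epcam-low cells. In tumor 2 the other Epcam-low cells carried 7840 CPM of acinar markers in the sorted library and 88012 CPM in the all live library, and the part of that RNA in the tumor 2 shares was not tested.

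Outside the 6 genes, the Adh7-Gkn2 cells were set beside other Epcam-low cells of the same library. Since the rule chose the cells on these counts, the differences are a description and carry no test, and a gene counts as higher or lower when it passed 1.5-fold in both libraries of tumor 1. Folds are on a log2(CPM + 5) scale. Among 2634 genes at 50 CPM or more, with the rule genes counted, 51 were higher (1.94%) and 13 lower (0.494%). Ttr, Cyp2s1, Adh7, Gkn2 and S100g, which chose the cells, are among the 51. Over all these genes the median log2 fold was -0.03, and 31.9% were above 0 and 42.8% below 0 in both libraries. Across genes, which are not independent replicates, the folds of both libraries had a Pearson correlation of 0.782.

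Of the gastric genes, Gkn1 was at 227 and 347 CPM in Adh7-Gkn2 cells, against 85.7 and 82.4 CPM in other Epcam-low cells (log2 folds 1.35 and 2.01), although 2 cells held 166 of its 621 UMIs in sorted CAF library 1 and 531 of 1375 in all live library 1. The gastrokines were not particular to these cells. In Epcam-rich cells Gkn1 stood at 65.5 CPM in all live library 1, 1317 CPM in sorted CAF library 2 and 678 CPM in all live library 2. Gkn2 stood there at 52.8, 1034 and 574 CPM. Dpcr1, a mucin-like gene outside the gastric list, was at 214 and 206 CPM in Adh7-Gkn2 cells, against 88.5 and 89.1 CPM in other Epcam-low cells. Tff1, the trefoil peptide of gastric surface mucus, was the most abundant of the group, at 7510 and 9499 CPM in Adh7-Gkn2 cells against 5413 and 5960 CPM in other Epcam-low cells. It was short of 1.5-fold in sorted CAF library 1 (ratio 1.39) and past it in all live library 1 (1.59). Of the 8 gastric genes at 50 CPM or more outside the rule, only Gkn1 passed the fold, 6 were above 0 in both libraries and the median log2 fold was 0.24. Ctse, the gastric protease cathepsin E, was at 632 and 625 CPM, against 682 and 629 CPM, and Anxa10 at 685 and 764 CPM, against 672 and 703 CPM. From cell to cell, Gkn2 was most like Gkn1, with a Spearman rho of 0.498 over 271 thinned cells, then Tff1 (0.437). By library the rho of Gkn2 and Gkn1 was 0.400 over 115 cells of sorted CAF library 1 and 0.597 over 150 of all live library 1.

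Of 9 xenobiotic and glutathione genes, 3 passed the fold, 0 were lower and the median log2 fold was 0.48. Gsta1, an alpha-class glutathione transferase with a near-identical neighbour, Gsta2, whose reads may be split with it, stood at 1730 and 1498 CPM in Adh7-Gkn2 cells against 772 and 780 CPM in other Epcam-low cells. Gstm1, a mu-class transferase, had log2 folds of 1.01 and 1.14, and Gsta3 stood at 124 and 109 CPM, against 63.7 and 45.0 CPM. Akr1c12, an aldo-keto reductase, was below 0 in both libraries (log2 folds -0.29 and -0.34). The carbonyl reductases Cbr3 (log2 folds 0.97 and 1.45) and Cbr1 (0.85 and 1.11), the carboxylesterase Ces2g (0.87 and 0.97) and Dhrs7, a short-chain dehydrogenase (0.81 and 1.42), were among the 20 leading genes. Of 17 genes counted as NRF2 targets, NRF2 being the factor that drives antioxidant genes, Hmox1, Gclc and Slc7a11 passed and 0 were lower (median 0.36). Hmox1, the haem oxygenase, was at 126 and 114 CPM, against 68.3 and 52.2 CPM, and Gclc, a subunit of the glutathione-synthesising ligase, at 138 and 109 CPM, against 87.4 and 67.3 CPM. Npy or Cpe positive cells had 133 and 112 CPM of Hmox1 and 101 and 108 CPM of Gclc. Txn1 and Prdx1 of the same list stood nearly level, Txn1 at 1009 and 1044 CPM against 1085 and 1122 CPM, and Prdx1 at 2368 and 2029 CPM against 2354 and 2103 CPM.

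All 22 genes of glycolysis and hypoxia at 50 CPM or more were above 0 in both libraries, beside 31.9% of all genes, with 4 past the fold, 0 lower and a median log2 fold of 0.53. Bnip3, a mitochondrial protein of the hypoxia response, stood at 459.7 and 438 CPM in Adh7-Gkn2 cells against 231 and 200.4 CPM in other Epcam-low cells. Ndrg1 was at 457 and 489 CPM, against 292 and 234 CPM, Car9, a carbonic anhydrase, at 84.0 and 56.2 CPM, against 39.5 and 35.1 CPM, and Pfkp, a phosphofructokinase, at 102 and 92.5 CPM, against 64.7 and 50.7 CPM. Ero1l, which is outside that list and encodes an oxidase of disulphide formation in the endoplasmic reticulum, was at 842 and 737 CPM, against 399 and 289 CPM. Npy or Cpe positive cells were as high or higher, with 893 and 858 CPM of Ero1l and 613 and 600.0 CPM of Bnip3. Of the 20 leading genes 18 had a promoter window, and 7 of these held ACGTG, Bnip3 and Ero1l among them, beside 19.6% of all windows. Of the same 18, 4 held AGATAA, 2 TGANTCA and 3 TGACNNNGC, the core of the antioxidant response element. These were in 11.2%, 7.81% and 12.4% of all windows. The window of Cyp2s1, not printed here, held 0 matches to ACGTG. No enrichment was tested.

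**Figure D3:**
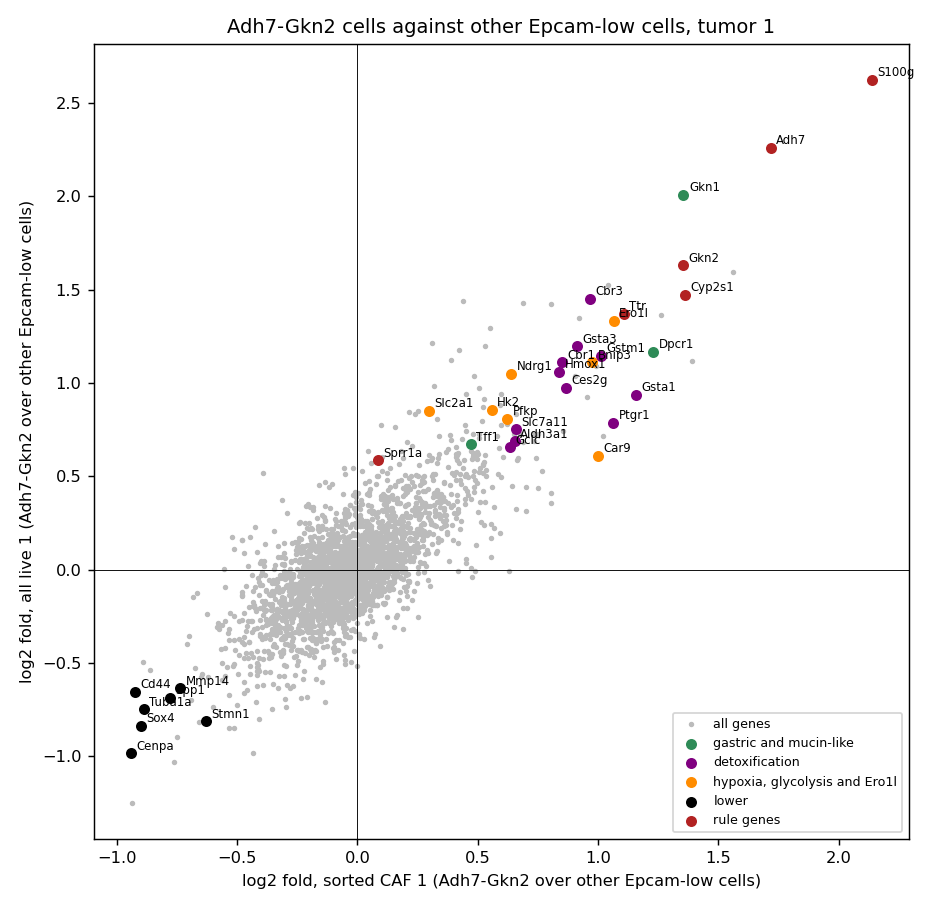
Log2 fold of Adh7-Gkn2 over other Epcam-low cells for each gene at 50 CPM or more, in sorted CAF library 1 (horizontal axis) and all live library 1 (vertical axis), with named genes coloured by group. Gkn1 (1.35 and 2.01), Gsta1 and Bnip3 sit at the upper right with the rule genes, Sprr1a (0.08 and 0.59) sits close to the cloud, and Sox4, Spp1 and Cenpa sit at the lower left.

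Of 15 genes of iron, metal and lipid handling, the metallothioneins Mt1 and Mt2, the fatty acid binding protein Fabp1 and the apolipoprotein Apoa1 passed the fold, 0 were lower and the median log2 fold was 0.51. Mt1 stood at 4475 and 4161 CPM in Adh7-Gkn2 cells, against 2814 and 2749 CPM in other Epcam-low cells. Apoa1 was at 86.2 and 111 CPM, against 29.8 and 48.6 CPM. Selenbp1, a selenium-binding protein, had the largest fold outside the rule that both libraries shared, at 125 and 121 CPM against 39.0 and 36.6 CPM (log2 folds 1.56 and 1.59). Other leading genes were Eps8l3, Cmbl, Ckmt1, Ifi30 and AA467197, with log2 folds between 0.90 and 1.53 in single libraries. Npy or Cpe positive cells were higher than Adh7-Gkn2 cells in Apoa1, at 129 and 152 CPM. They were also higher in AA467197, at 177 and 132 CPM, against 52.3 and 67.3 CPM in Adh7-Gkn2 cells. Selenbp1, Eps8l3, Cmbl, Ckmt1 and Ifi30 were lower in Npy or Cpe positive cells than in Adh7-Gkn2 cells in both libraries.

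Among the genes lower in Adh7-Gkn2 cells, Spp1, the secreted phosphoprotein osteopontin, stood at 1491 and 1481 CPM in Adh7-Gkn2 cells, against 2566 and 2389 CPM in other Epcam-low cells and 8799 and 7727 CPM in Npy or Cpe positive cells. Sox4, a transcription factor gene, was at 138 and 122 CPM, against 261 and 222 CPM (log2 folds -0.90 and -0.84). Cd44, the hyaluronan receptor, was at 35.1 and 43.1 CPM, against 71.1 and 70.7 CPM, and the membrane protease gene Mmp14 at 56.3 and 57.7 CPM, against 97.1 and 92.5 CPM. Of 10 ductal and progenitor surface genes 0 were higher and Spp1 and Cd44 lower (median -0.18). Krt7 stood at 380 and 359 CPM, against 559 and 482 CPM. Of 6 proliferation genes Stmn1 was lower and 5 were below 0 in both libraries (median -0.58), beside 42.8% of all genes. Ccnd2 of the same list was at 206 and 182 CPM, against 141 and 120 CPM. The rule kept out cells with 5 or more cell cycle genes from both sides. The remaining lowest genes were Cenpa, Slc24a5, Prkg2, Tuba1a, Rrs1, Myef2 and Psip1, with log2 folds between -1.03 and -0.60. When cells were chosen on a random 0.5 of their UMIs (2 or more of the 6 genes, 511 cells against 208) and read in the rest of the UMIs, 32 of the 51 higher genes but 2 of the 13 lower genes passed again, Prkg2 coming to -0.08 and Psip1 to -0.26. Genes of the rule are counted in the 51.

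Other groups showed little. Only 3 of 24 squamous and cornified envelope genes reached 50 CPM besides Sprr1a, and 0 passed the fold in either direction: Krt6a stood at 145 and 142 CPM, against 161 and 162 CPM, Ivl at 293 and 251 CPM, against 294 and 361 CPM, and Krt14 at 67.2 and 54.4 CPM, against 39.5 and 38.7 CPM. Of 7 retinoid and alcohol genes besides Adh7, Aldh3a1 passed, at 234 and 202 CPM, against 147 and 124 CPM, and the median was 0.01. Adh5 was at 209 and 174 CPM, against 178 and 167 CPM, and Aldh1a3, which makes retinoic acid, at 889 and 855 CPM, against 929 and 1032 CPM. Of 8 pancreatic and foregut transcription factor genes, 4 epithelial-mesenchymal transition genes and 14 S100 and calcium-binding genes, 0 passed in either direction, with medians of 0.05, 0.26 and 0.06. Dissociation stress genes, which respond to tissue digestion, had a median of 0.15 with 0 of 18 past the fold.

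**Figure D4:**
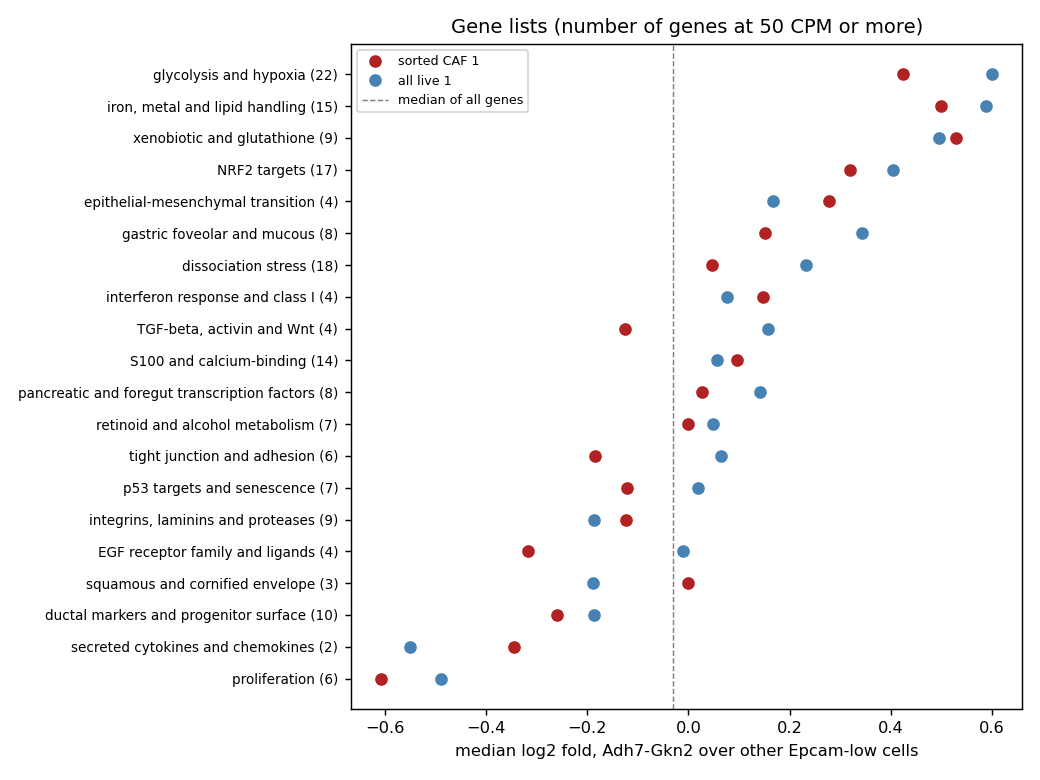
Median log2 fold of Adh7-Gkn2 over other Epcam-low cells (horizontal axis) for each gene list, the number of its genes at 50 CPM or more in brackets, with a point for each library of tumor 1 and a dashed line at the median of all genes, -0.03. Glycolysis and hypoxia, iron, metal and lipid handling, xenobiotic and glutathione, and NRF2 target genes lie on the right in both libraries, and proliferation genes on the left.

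Correlations between the 6 genes were weak from cell to cell. Over 271 cells thinned to 5000 UMIs, which share equal depth and nearly all come from 1 tumor, the 15 pairs had Spearman correlations between -0.13 and 0.20 with a median of 0.03. The requirement of 4 genes bears on these values. Over 699 cells of the whole Epcam-low set of tumor 1 all 15 pairs were above 0 and lay between 0.005 and 0.235 with a median of 0.122. The genes nearest to each were sought among 2677 genes seen in 20% or more of the cells. Sprr1a was most like Lgals3 (0.366), which encodes galectin-3, then Nupr1 (0.362), Malat1 (0.280), Ero1l (0.265) and Bnip3 (0.263). Adh7 was most like Ptgr1 (0.310), a reductase of prostaglandins and leukotrienes, then Ckmt1 (0.273), Gsta3 (0.216), Cystm1 (0.209) and 2810004N23Rik (0.205). Cyp2s1 was most like Bnip3 (0.363), then Selenbp1 (0.349), Ndrg1 (0.324), Nupr1 (0.295) and Ldha (0.290), of which Bnip3 and Nupr1 were also near Sprr1a. Ttr was nearest to Serf2 (0.319) and S100g to Hcfc1r1 (0.340). In sparse counts correlations of this size are weak and are given as a description.

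The sorted CAF and all live fractions were then compared within the Adh7-Gkn2 cells of tumor 1. One library stands on each side, so there is no test and the differences have no replicate check. Of 2705 genes at 50 CPM or more in one of the fractions, 7 were at least 1.5-fold higher (0.259%) and 13 at least 1.5-fold lower (0.481%) in the sorted CAF than in the all live library, with a median log2 fold of 0.03. From the 5th to the 95th percentile the folds ran from -0.27 to 0.31.

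The largest differences were in the leukocyte genes Lyz2 and S100a8. Lyz2, the lysozyme of macrophages and neutrophils, stood at 0.731 CPM in sorted CAF library 1 and 68.5 CPM in all live library 1, and was detected in 2 of 116 and 109 of 150 Adh7-Gkn2 cells. S100a8, a neutrophil gene, was at 1.46 CPM in the sorted and 69.3 CPM in the all live library, in 3 of 116 and 112 of 150 cells. Cxcl2, a chemokine gene, was at 17.5 CPM in the sorted and 76.6 CPM in the all live library. Other Epcam-low cells showed the same, with Lyz2 at 0.255 CPM in the sorted and 127 CPM in the all live library, S100a8 at 0.765 and 77.2 CPM and Cxcl2 at 2.55 and 106 CPM. In leukocytes of all live library 1 these genes stood at 14145, 7203 and 3693 CPM for Lyz2, S100a8 and Cxcl2. That library held 427 leukocytes, and sorted CAF library 1 held 0. Summed neutrophil markers in Adh7-Gkn2 cells were at 1.46 CPM in the sorted library, with 5 of 6 at 0, and at 153 CPM in the all live library, with 0 of 6 at 0, and the part of leukocyte RNA in these differences was not tested.

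Igfbp7 was at 9.50 CPM in sorted CAF library 1 and 53.7 CPM in all live library 1, but 2 cells held 152 of the 213 UMIs of the all live library, and without the 2 highest cells of each library it was at 7.67 and 15.4 CPM. Among the genes higher in the sorted library, Akr1b7, an aldo-keto reductase, was at 53.7 CPM in the sorted and 26.5 CPM in the all live library, while in other Epcam-low cells it was at 21.7 and 26.8 CPM. The 2 highest cells held 45 of its 147 UMIs in the sorted and 48 of 105 in the all live library. Malat1, a nuclear RNA, was at 16989 and 10516 CPM, and Arl14 at 197 and 113 CPM. Ckmt1, which led the Adh7-Gkn2 cells, was lower in the sorted library, at 122 CPM against 203 CPM in the all live library, as was the stress gene Ddit3, at 79.3 CPM against 130 CPM. Gm10263 and Rps27 on the higher and Gm10036, Gm9493 and Rpl23a-ps3 on the lower side belong to ribosomal protein families with near-identical copies, so their counts are uncertain. Dnajb4 and Hes1 were also higher (log2 folds 0.73 and 0.67) and Egln1 lower (-0.85), while Ppid, Rpf2 and Rps29, the next in order, stayed just under 1.5-fold (0.58, 0.57 and 0.57). Among other genes of the Adh7-Gkn2 cells, 3 stayed under 1.5-fold between the fractions, with Adh7 at 176 CPM in the sorted and 148 CPM in the all live library, Gsta1 at 1730 and 1498 CPM and Ero1l at 842 and 737 CPM. Gkn1 was among the 13 lower genes, at 227 CPM in the sorted and 347 CPM in the all live library (log2 fold -0.60), and stood at 166 and 213 CPM without the 2 highest cells of each.

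**Figure D5:**
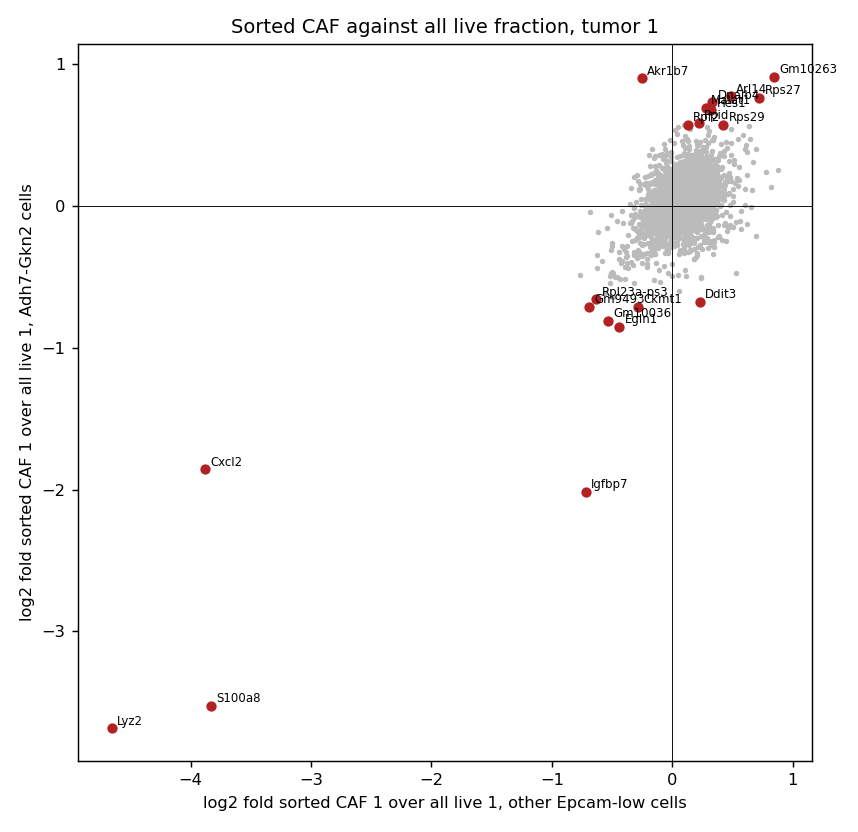
Log2 fold of sorted CAF library 1 over all live library 1 for each gene, in other Epcam-low cells (horizontal axis) and in Adh7-Gkn2 cells (vertical axis), with the 20 named genes in red. Lyz2, S100a8 and Cxcl2 lie at the lower left, lower in the sorted library in both classes, Igfbp7 lies low in Adh7-Gkn2 cells, and nearly all other genes gather near 0.

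In tumor 2, the 6 Adh7-Gkn2 cells of sorted CAF library 2 held 182027 UMIs in all. They had 33.0 CPM of Adh7, 82.4 CPM of Gkn2, 352 CPM of Sprr1a and 38.5 CPM of Cyp2s1, with Ttr at 329.6 CPM and S100g at 93.4 CPM. Gkn1 was at 49.4 CPM, Gsta1 at 176 CPM, Gstm1 at 840.5 CPM and Spp1 at 6439 CPM, and Ero1l was at 0. The 55 other Epcam-low cells of that library had 0.926 CPM of Adh7, 176 CPM of Gkn2, 131 CPM of Gsta1 and 13186 CPM of Spp1. Its 11 cycling cells had 5.14 CPM of Adh7 and 421 CPM of Gkn2, and its 26 Epcam-rich cells 0 and 1034 CPM. The name Adh7-Gkn2 was taken from tumor 1, and in this library Gkn2 was not highest in the cells so named. With 6 cells these values are given side by side and no difference is drawn from them.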

How the data were processed

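Gene expression was measured by 10x Chromium 3' sequencing in 4 libraries, a sorted CAF and an all live fraction of each of 2 tumors. The authors deposited raw UMI counts, whole numbers for each gene in each barcode, from Cell Ranger 2.0.0, CASAVA 1.4 and the mm10 build, per the submitters' processing notes. Tables of gene and barcode names accompany them. The barcodes numbered 1411, 1948, 1340 and 3583 in sorted CAF library 1, all live library 1, sorted CAF library 2 and all live library 2, with median depths between 3287 and 13764 UMIs. The sources used here do not give the filter that chose these barcodes.

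Cells were selected by the stated rule. UMIs were summed per class and library, scaled to CPM and compared as log2(CPM + 5), for genes at 50 CPM or more in either class in every library with at least 20 cells of both. Intervals are Clopper-Pearson for shares, exact Poisson for levels and exact conditional for ratios, at 95%, and cover counting error only. No test over samples was possible, since only 1 library per fraction held 10 or more members. The planned count model was therefore not fitted. The text names the rule genes, the 20 highest and 12 lowest genes by the smaller fold of both libraries, the 10 highest and 10 lowest between fractions, the 5 nearest by correlation, and list genes of high level or large fold. The members, the gene lists and this rule were chosen with earlier results of these data known. Pecam1 and the other sort genes, and the count of UMIs in the 2 highest cells, were added after values were seen. An allele of the genotype and a gene that the rule names are not reported here.

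Cells with high doublet scores (scanpy 1.11.5, the highest 0.8% per 1000 barcodes, 157 cells) were kept and left out only as an alternative. They held 3 of the 272 members (1.10%) and 1.97% of all filtered cells. The tumor 1 libraries shared 6 barcodes, 1 of which was a member in one of them. Thinning drew UMIs without replacement with a fixed seed. Endothelial cells were filtered cells with 2 or more of Cdh5, Plvap, Kdr and Emcn and keratins under 20 per 10000, and leukocytes had a Ptprc UMI and keratins under 20 per 10000. Promoters come from RefSeq on GRCm38.p6, mm10 being the browser name of GRCm38. Python 3.11.15, numpy 2.4.6, scipy 1.17.1, pandas 2.3.3 and matplotlib 3.10.9 were used, and the fold calculation was tested on simulated data.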

Additional observations from a re-analysis of the deposited data

Results flagged for a closer look

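Adh7-Gkn2 cells made up 9.84% of Epcam-low epithelial cells in sorted CAF library 2 (6 of 61) and 0% in all live library 2 (0 of 20), while in tumor 1 the share was lower in the sorted CAF library, at 33.1%, than in the all live library, at 40.8%. The difference between the tumors was not tested. In tumor 2 the odds ratio of the sorted CAF over the all live fraction has a lower bound of 0.389 and no upper bound, so its direction is not known there. The limit for 0 of 20 cells, 15.0% by 3 counts and 16.8% by the Clopper-Pearson interval, lies above the share of sorted CAF library 2, and after thinning that share was 0%. The 20 cells of all live library 2 had a median of 4205.5 UMIs, and the part of depth was not tested.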

How the results depend on the processing

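The number of Adh7-Gkn2 cells depends on the rule. It was 272 with 4 or more genes, 438 with 3 or more, 130 with 5 or more, 120 when all conditions were applied to cells thinned to 5000 UMIs, and 157 within 15000 to 35000 UMIs, a depth range chosen after seeing the data. Leaving out 1 library gave between 122 and 272. The shares in sorted CAF library 1, all live library 1 and sorted CAF library 2 were 56.98%, 60.05% and 22.9% with 3 or more genes, 14.8%, 20.6% and 3.28% with 5 or more, and 9.78%, 13.8% and 0% after thinning. Within the depth range tumor 1 had 42.3% (sorted CAF) and 50.3% (all live). The odds ratio of tumor 1 kept its direction, but its interval held 1 with 3 or more genes (0.881), 5 or more (0.669), thinning (0.680), Epcam at 0 (0.761) and the depth range (0.725). Fewer Adh7-Gkn2 cells enter all of these but the first, for which the cause was not tested.

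With the rule genes counted, genes higher in Adh7-Gkn2 cells numbered 51, and 90 with no minimum level, 115 for 5 or more against 2 or fewer genes, and 68 to 120 with 1 library of tumor 1 left out, where a fold has to pass in 1 library only. Genes lower numbered 13, and 52, 46 and 29 to 50 under the same settings, 7 with cells chosen on 0.5 of the UMIs and 30 within the depth range, which shared 40 of the 51 higher and 12 of the 13 lower genes. Between fractions the 7 higher genes became 12 with a prior of 1 CPM, and 89 higher and 210 lower passed with no minimum level. Of 266 values of the 38 named genes under these settings 79 moved in size and 0 reversed. These genes are those of the rule and those picked for the largest shared folds in these data. Most settings also kept cells chosen on the same counts, so the lack of reversals is no independent check. Leaving out 1 library could not reverse a value, since these genes had the same direction in both libraries of tumor 1. The other values are means of both libraries, which can hide a change of direction in 1 of them. With cells chosen on 0.5 of the UMIs, Sprr1a had a mean log2 fold of 0.04 with a standard deviation of 1.18 between libraries. No paired analysis was possible because tumor 2 had 6 sorted and 0 all live Adh7-Gkn2 cells, so the planned replicate block, edgeR and DESeq2 fits, their filters and the leave-one-out of that test were not run.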

Other observations

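Pecam1 was detected in every Epcam-low class of tumor 1. In sorted CAF library 1 and all live library 1 it stood at 72.3 and 99.8 CPM in Adh7-Gkn2 cells, 59.2 and 89.0 CPM in Npy or Cpe positive cells and 62.5 and 84.7 CPM in cycling cells. In all live library 1 it stood at 69.7 CPM in 40 Epcam-rich cells, and in tumor 2 at 10.02 CPM in the 168 Epcam-rich cells of the all live library. Without the 2 highest cells of each library it was at 67.6 and 96.0 CPM in Adh7-Gkn2 cells. Cdh5, another endothelial gene, was at 2.19 and 3.02 CPM in Adh7-Gkn2 cells and at 1064 CPM in endothelial cells of all live library 1. In those endothelial cells Plvap was at 3047 CPM.

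Levels of a few other genes are given by how many of the 6 rule genes a cell had, and median depth was higher with more of them, up to 5. In cells with 0, 3, 5 and 6 of the 6 genes, sorted CAF library 1 had 460.3, 926, 1947 and 1788 CPM of Gsta1, and all live library 1 had 506.5, 860.2, 1549 and 2068 CPM. For Lgals3 the values were 1037, 1194, 1888 and 3405 CPM in sorted CAF library 1, and 1070.2, 1140, 1918 and 2292 CPM in all live library 1. Spp1 stood at 3160, 1832, 1418 and 1382 CPM in sorted CAF library 1, and 1544, 2152, 1335 and 1357 CPM in all live library 1. Clu, chosen after its values were seen, correlated negatively with Gkn2 over thinned Adh7-Gkn2 cells, with a Spearman rho of -0.38 in sorted CAF library 1 and -0.27 in all live library 1, a weak relation in sparse counts given as a description.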
